A study of Saccharomyces cerevisiae with 8 samples.

Results

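Tfg1 is the large subunit of TFIIF, a general transcription factor (GTF) that binds RNA polymerase II (RNAPII) and takes it into the pre-initiation complex at promoters. Tfg1 can be modified by SUMO, a small protein that is attached to lysines, and the Tfg1-K60,61R-HA strain of budding yeast was made to remove the lysines at positions 60 and 61. Steady-state mRNA levels in this strain were compared with those in the Tfg1-HA strain, with 2 libraries of each, which are 4 of the 8 RNA-seq libraries of the series, and all 6120 genes of the count table were taken. Of these genes, 5909 passed the filter on low counts and were tested. Tfg1-K60,61R-HA carries K60R and K61R in Tfg1 (arginine in place of lysine) and also N462Q (glutamine in place of asparagine), which arose inadvertently, so the comparison covers all of these substitutions together. Tfg1-HA has Tfg1 without them. In both strains Tfg1 ends in an HA tag and is expressed from its own locus, which is marked with the TRP1 gene of *Kluyveromyces lactis*. Both have the W303a background, which is mating type a and carries mutant *ura3*, *trp1*, *leu2*, *his3*, *ade2* and *can1* alleles. Polyadenylated RNA was sequenced from mid-log cultures of both, which grew at 30°C in SC, a synthetic medium with the full set of supplements. The labels call the 2 libraries of a strain replicates. The study lists each of the 2 strains under 1 strain code and names no second isolate, so genotype and isolate cannot be told apart.

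The substituted codons are shown because they define the strain. They are taken from the S288C reference sequence (RefSeq R64, the sacCer3 build), in which *TFG1* lies on the plus strand of chromosome VII from 867774 to 869981 and encodes 735 residues. In the first stretch, chrVII:867921-867986, the capitals mark codons 60 and 61. In the second, chrVII:869127-869189, they mark the codon changed in N462Q.
TFG1 codons 60 and 61: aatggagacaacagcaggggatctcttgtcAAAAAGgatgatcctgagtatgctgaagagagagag
TFG1 codon of N462Q: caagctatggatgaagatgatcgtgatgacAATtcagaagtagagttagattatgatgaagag

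The groups of genes described here are controlled as units in yeast. Ribosomal protein genes (RPGs) and the ribosome biogenesis genes follow growth, the purine, lysine and sulfate pathways follow the supply of their end products, and the iron, zinc, copper and phosphate regulons follow the metal or phosphate that the cell can reach. Another unit follows oxygen. The heme group can only be made with oxygen, and with heme the activator Hap1 drives genes of aerobic life, including *ROX1*, whose product represses the low-oxygen genes. When oxygen and heme are scarce this repression is lost, and the regulator Upc2 additionally switches on sterol uptake genes and the anaerobic cell wall mannoproteins of the TIR and DAN families.

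No gene was called. Of 5909 genes, 0 (0%) had an adjusted p under 0.05 by edgeR's quasi-likelihood test with Benjamini-Hochberg adjustment, and the smallest adjusted p was 0.42. At an unadjusted p under 0.05, 372 genes (6.3%) had higher and 200 (3.38%) had lower levels in Tfg1-K60,61R-HA. The test pools the spread within strains over all 8 libraries, and that spread was unequal, being widest in the mutant strain (values below). These counts may therefore be too high. With the 4 libraries of the 2 Tfg1 strains alone, 193 genes were higher and 99 lower at that threshold. Unless another fit is named, the counts at an unadjusted p given for each list come from the pooled fit and share this limit. Both Tfg1-K60,61R-HA libraries lay above both Tfg1-HA libraries for 1088 genes (18.4%) and below both for 1027 genes (17.4%), and these shares are the background for the counts of members given for each list. Of other tools run, edgeR's likelihood ratio test called 3 genes and DESeq2 called 36. With 2 libraries in each strain, 0.333 is the smallest two-sided p that an exact permutation test allows. The text therefore describes lists of genes by their counts and medians, which test nothing about the list, and writes "above" and "below" of values and not of changes that passed the test. All levels are relative to the other mRNAs of a library, because the counts hold no external standard.

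The 2 Tfg1-K60,61R-HA libraries stood further apart than the replicates of any other strain. The libraries held 32367145 and 26683432 counts in Tfg1-K60,61R-HA replicates 1 and 2, against 33822215 and 34614232 in Tfg1-HA. Across genes, the SD of replicate 1 minus replicate 2 on the log2 scale was 0.29 in Tfg1-K60,61R-HA, against 0.17 in Tfg1-HA, 0.14 in *ubc9-6* (a strain with a mutant SUMO-conjugating enzyme) and 0.16 in W303a. Between the Tfg1-K60,61R-HA replicates 202 genes (3.42%) differed by more than 1.5-fold, 150 of them with the higher level in replicate 1. Between the Tfg1-HA replicates 87 genes did so. When Tfg1-K60,61R-HA replicate 2 was left out, 307 genes (5.17% of 5934) were called above Tfg1-HA and 139 (2.34%) below, whereas without replicate 1 no gene was called in either direction. These calls rest on a single library, whose spread was taken from the other strains. Values are therefore given for each library.

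The genes that set Tfg1-K60,61R-HA replicate 1 apart most were low-oxygen genes. They were noticed only after the values had been seen, so the list of 23 used for them is a description without a test. *TIR1*, on chromosome V from 175248 to 176012, encodes an anaerobic cell wall mannoprotein and had 10444 and 38 counts in Tfg1-K60,61R-HA replicates 1 and 2, against 40 and 44 counts in Tfg1-HA. *DAN1*, on chromosome X from 708811 to 709707, encodes another and had 1756 and 7 counts, against 6 and 13 in Tfg1-HA. *ANB1*, on chromosome X from 524908 to 525381, encodes the low-oxygen form of the translation factor eIF5A and had 3720 and 20 counts, against 14 and 33 in Tfg1-HA. In each case replicate 1 alone was high, and replicate 2 was as low as the Tfg1-HA libraries. Relative to the Tfg1-HA mean CPM (counts scaled to library size with edgeR's TMM factors), replicate 1 was 271-fold higher for *TIR1*, 203-fold for *DAN1* and 174-fold for *ANB1*, and replicate 2 lay at 1.2, 0.98 and 1.13 times that mean. The edgeR log2 fold changes of the strains were 7.09 (standard error 1.88), 6.65 (standard error 1.82) and 6.44 (standard error 1.75), each with an adjusted p of 0.446 from edgeR. In W303a and *ubc9-6* the *TIR1* level was between 1.06 and 2.56 CPM in all 4 libraries, against 330 CPM in Tfg1-K60,61R-HA replicate 1.

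The sequences upstream of 3 of these genes carry words that the regulators of low-oxygen genes are known to bind, and they are printed so that the reader can see them (RefSeq R64, 5′ to 3′ on the strand of the gene). The capitals mark ATTGTTCTC, the core of the Rox1 site, before *ANB1* (chrX:525567-525682, minus strand) and *HEM13* (chrIV:546440-546488, plus strand), and TCGTTNAG, the AR1 element bound by Upc2, at both places before *DAN1* (chrX:710092-710139 and chrX:709860-709907, minus strand).
ANB1 upstream: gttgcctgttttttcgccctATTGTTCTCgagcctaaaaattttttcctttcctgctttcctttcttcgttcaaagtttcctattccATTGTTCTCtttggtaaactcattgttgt
HEM13 upstream: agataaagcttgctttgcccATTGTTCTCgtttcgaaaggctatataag
DAN1 upstream, distal: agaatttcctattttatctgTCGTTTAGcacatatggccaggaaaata
DAN1 upstream, proximal: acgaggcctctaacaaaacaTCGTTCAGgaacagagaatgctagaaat
The *ANB1* matches begin 281 and 214 bases before the start codon, that of *HEM13* 182 bases and those of *DAN1* 412 and 180 bases before it. Searched on both strands in the 500 bases before the start codon, ATTGTTCTC was found for 4 of the 23 low-oxygen genes (*ANB1*, *HEM13*, *HMG2* and *NCP1*), against 68 of 6117 genes (1.11%). TCGTTNAG was found for 9 of the 23, against 312 of 6117 (5.1%). *TIR1* has neither word in this window. Genes with a word did not all rise in replicate 1 of the mutant strain. *TIR4*, *HES1* and *UPC2*, which also carry TCGTTNAG, stood there at 3.78, 2.14 and 1.53 times the Tfg1-HA mean. *NCP1* (both words), *HMG2*, *DAN4*, *ARE1*, *PDR11* and *ERG11* stood at 1.14, 1.11, 1.02, 1.05, 0.991 and 0.949 times that mean. Part of the list was drawn up as genes repressed through heme and Rox1, so its shares test nothing. A match is a description of the letters and not of binding.

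Most of the low-oxygen list pointed the same way in replicate 1, with sizes that differed widely. Of the 23 genes, all of which passed the filter, 13 lay more than 1.5-fold above the Tfg1-HA mean in Tfg1-K60,61R-HA replicate 1, where 107 of all 5909 genes (1.81%) did, and 0 did so in replicate 2. Their median was 0.63 above the Tfg1-HA mean in replicate 1 and 0.037 above it in replicate 2, on the log2 scale, beside medians of -0.0019 and -0.0006 over all genes tested. The 7 wall mannoprotein genes lay furthest out, with a median of 1.94 in replicate 1 and 0.11 in replicate 2. *TIR2* had 995 and 146 counts in Tfg1-K60,61R-HA, against 158 and 175 in Tfg1-HA. *TIR3* had 1101 and 231 counts, against 298 and 326. *TIR4* had 1518 and 379 counts, against 412 and 464, and *TIP1* had 12326 and 5392 counts, against 6288 and 6944. In all of them replicate 1 was the highest library by a wide margin. *DAN4*, also a mannoprotein gene, lay at 1.02 times the Tfg1-HA mean in replicate 1. Of genes under heme and Rox1, *HEM13*, which encodes the oxygen-requiring coproporphyrinogen oxidase of heme synthesis, had 7153 and 1772 counts in Tfg1-K60,61R-HA, against 2127 and 2203 in Tfg1-HA. *AAC3*, an ADP/ATP carrier of anaerobic mitochondria, had 566 and 59 counts, against 93 and 99. *COX5B*, the low-oxygen form of a cytochrome oxidase subunit, had 4265 and 1952 counts, against 2353 and 2603, and *FET4*, a low-affinity iron transporter gene, had 11617 and 5929 counts, against 8170 and 8211. By contrast *CYC7*, *HMG2*, *SUT1*, *OLE1*, *ERG11* and *NCP1*, which also belong to this group, lay between 0.931 and 1.21 times the Tfg1-HA mean in replicate 1. Sterol genes were also mixed. *UPC2* lay at 1.53 times the Tfg1-HA mean in replicate 1, the sterol importer gene *AUS1* at 1.44 times and *HES1*, an oxysterol-binding protein gene, at 2.14 times, while *PDR11*, the other importer gene, lay at 0.991 times and *ARE1*, a sterol esterification gene, at 1.05 times. In all, 20 of the 23 genes were higher in Tfg1-K60,61R-HA replicate 1 than in replicate 2, whereas replicate 1 was the higher in 7 of 23 in Tfg1-HA. The list was picked after these values were seen, so calls from fits without 1 library would test nothing and are not given. The seripauperin (PAU) family, subtelomeric genes that low oxygen is also known to induce, did not follow. Of its 24 members 12 passed the filter, and their medians were 0.23 in replicate 1 and -0.056 in replicate 2, with levels in replicate 1 from 0.595 times the Tfg1-HA mean for *PAU4* to 1.75 times for *PAU3* and 0 genes at an unadjusted p under 0.05. Most of these genes had few counts, and many are near-identical copies of each other.

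**Figure D1:**
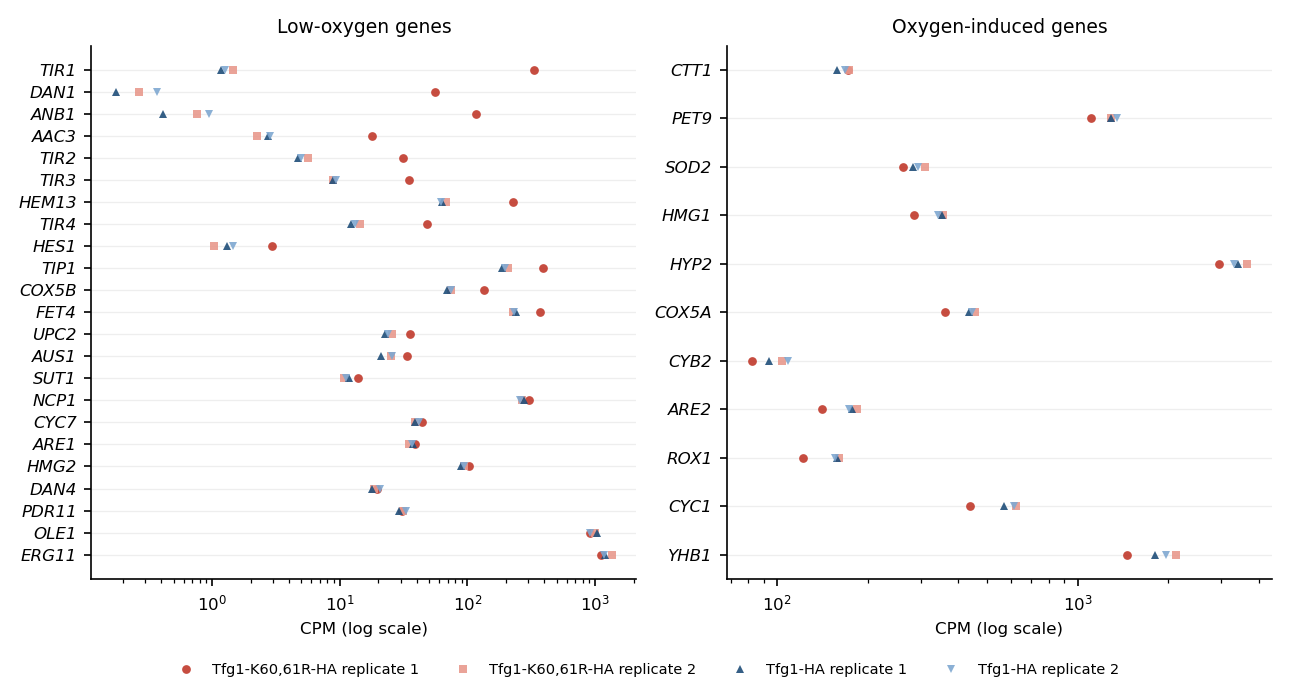
Level of each low-oxygen gene (left) and of each oxygen-induced gene (right) in CPM on a log scale, with 1 point per library. Tfg1-K60,61R-HA replicate 1 stands alone at 330 CPM for *TIR1*, where the other libraries are at 1.45, 1.18 and 1.25 CPM, and lies at the left of most rows of oxygen-induced genes.

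Genes of aerobic life lay slightly the other way in the same library. The 11 oxygen-induced genes, also picked after the values were seen, had a median of -0.28 relative to the Tfg1-HA mean in Tfg1-K60,61R-HA replicate 1 and 0.07 in replicate 2, and all 11 were lower in replicate 1 than in replicate 2. Several are the aerobic partners of low-oxygen genes. *CYC1*, the major cytochrome c gene, stood at 437 and 623 CPM in Tfg1-K60,61R-HA, against 568 and 616 CPM in Tfg1-HA. *ROX1* itself stood at 122 and 160 CPM, against 158 and 156 CPM. *HYP2*, the aerobic eIF5A gene, stood at 2946 and 3668 CPM, against 3428 and 3317 CPM. *YHB1*, which encodes a flavohemoglobin, stood at 1455 and 2126 CPM, against 1813 and 1964 CPM. For each of these named genes replicate 1 was the lowest of the 4 libraries and replicate 2 the highest, so the strains overlapped. Others of the 11 did not keep this order. *CTT1* lay above Tfg1-HA in both libraries, at 172 and 174 CPM against 158 and 168 CPM. *PET9* lay below it in both, at 1108 and 1291 CPM against 1294 and 1348 CPM. In RNA from a whole culture, a level shared by all cells and a much higher level in a small part of them cannot be told apart, and the aeration of the cultures is not given in the sources used here.

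Some of the other genes that differed between the Tfg1-K60,61R-HA replicates differed between the Tfg1-HA replicates in the same direction. The oxygen-related genes were not among them, since of the 23 low-oxygen genes only 2 differed by more than 1.5-fold between the Tfg1-HA replicates, *DAN1* and *ANB1*, both with at most 33 counts per library there and both lower in replicate 1. The iron regulon, which the factor Aft1 drives when iron is short, was one such group. The 30 genes had a median of 0.16 in Tfg1-K60,61R-HA replicate 1 and -0.087 in replicate 2, relative to the Tfg1-HA mean. The difference between replicates 1 and 2 had a median of 0.25 in Tfg1-K60,61R-HA and of 0.14 in Tfg1-HA. *FET3*, the multicopper oxidase of high-affinity iron uptake, stood at 393 and 145 CPM in Tfg1-K60,61R-HA, against 381 and 238 CPM in Tfg1-HA. *SIT1*, a siderophore transporter gene, stood at 76.2 and 17.4 CPM, against 47.0 and 21.7 CPM. *CCC2*, which encodes a copper pump that loads Fet3, stood at 48.7 and 40.3 CPM, against 55.4 and 47.2 CPM. Replicate 1 was higher than replicate 2 in both strains for these genes, and the strains overlapped. *FET3* stood between 59.95 and 84.97 CPM in the W303a and *ubc9-6* libraries, below both Tfg1 strains. The word TGCACCC, the core of the Aft1 site, was found within 500 bases of the start codon for 22 of the 30 genes, against 139 of 6117 (2.27%). The list was drawn up as genes that Aft1 drives, so this share tests nothing. *NCE103*, the carbonic anhydrase gene, singled out after its values were seen, had the same direction in both strains, with 241 and 83.5 CPM in Tfg1-K60,61R-HA against 226 and 76.3 CPM in Tfg1-HA.

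The thiamine genes lay the opposite way in both strains. The difference between replicates 1 and 2 had a median of -0.36 over the 24 genes in Tfg1-K60,61R-HA and of -0.4 in Tfg1-HA, so the median log2 fold change between the strains was 0.01. *PHO3*, which encodes a phosphatase that releases thiamine for uptake, stood at 478 and 639.5 CPM in Tfg1-K60,61R-HA, against 459 and 587 CPM in Tfg1-HA. *SNO2*, a vitamin B6 synthesis gene, stood at 3.6 and 4.02 CPM, against 4.31 and 5.91 CPM, and was the member with the lowest fold change. *SNZ1*, also of vitamin B6 synthesis and the member with the highest fold change, departed from the list at 105 and 31.3 CPM, against 33.2 and 25.8 CPM, and there Tfg1-K60,61R-HA replicate 1 was again alone. Over all genes, 12 were more than 1.5-fold higher in replicate 1 of both strains and 12 more than 1.5-fold lower in replicate 1 of both, whereas 8 and 2 differed by that much in opposite directions.

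**Figure D2:**
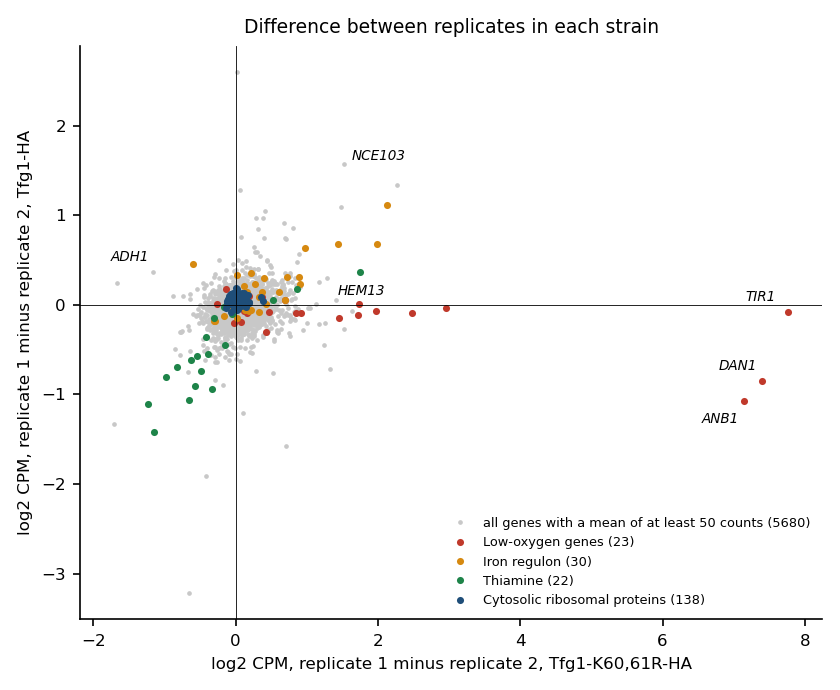
Log2 CPM of replicate 1 minus replicate 2 in Tfg1-K60,61R-HA (horizontal) and in Tfg1-HA (vertical), with 1 point for each of the 5680 genes that averaged 50 or more counts. Low-oxygen genes spread to the right along the horizontal axis, as far as *TIR1*, with *DAN1* and *ANB1* below the axis, most iron and thiamine genes lie along the diagonal, and RPGs stay near the origin.

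Nutrient pathways made up the lists with the highest medians, and in each Tfg1-K60,61R-HA replicate 1 was further from Tfg1-HA than replicate 2. Purine synthesis had the highest median log2 fold change of the 52 lists with at least 8 members tested, at 0.19, with 0.32 in replicate 1 and 0.059 in replicate 2 relative to the Tfg1-HA mean. Of its 22 genes, 10 had a higher and 1 a lower level in Tfg1-K60,61R-HA at an unadjusted p under 0.05. Over all genes these shares were 6.3% and 3.38%. For 8 genes both Tfg1-K60,61R-HA libraries lay above both of Tfg1-HA and for 1 below, beside 18.4% and 17.4% of all genes. With replicate 2 left out the median log2 fold change of the list was 0.32, and with replicate 1 left out it was 0.055. *ADE17*, which encodes the enzyme of the last steps to IMP, stood at 341 and 211 CPM in Tfg1-K60,61R-HA, against 194.5 and 153 CPM in Tfg1-HA (log2 fold change 0.67, standard error 0.21, adjusted p = 0.446, edgeR). *ADE3*, a one-carbon enzyme gene and the most abundant of the list in CPM, stood at 587 and 585 CPM, against 575 and 535 CPM. *IMD2*, which encodes the enzyme at the entry to GMP synthesis and is repressed by GTP, lay the other way at 40.9 and 46.6 CPM, against 49.9 and 50.2 CPM, and both Tfg1 strains were far below the 536 and 520 CPM of W303a. *ADE2*, which is mutant in this background, stood at 98.2 and 77.1 CPM, against 72.5 and 70.5 CPM. The word TGACTC, shared by the sites of Bas1 and Gcn4, was found within 500 bases of the start codon for 16 of the 22 purine genes, against 767 of 6117 genes (12.5%). This share describes the letters, and binding was not tested.

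The lysine, sulfate and phosphate lists had the same form. All 9 lysine synthesis genes lay above the Tfg1-HA mean in Tfg1-K60,61R-HA replicate 1 and 8 of 9 in replicate 2, with medians of 0.31 and 0.079. In 4 of 9 both libraries lay above both of Tfg1-HA, beside 18.4% of all genes. *LYS12*, homo-isocitrate dehydrogenase, stood at 338 and 275 CPM, against 263 and 254 CPM in Tfg1-HA. *LYS1*, which encodes the last enzyme of the pathway, stood at 161 and 101 CPM, against 103 and 88.6 CPM, and *LYS21*, which encodes a homocitrate synthase, at 261 and 238 CPM, against 237 and 225 CPM. TGACTC was found before 4 of the 9 lysine genes. TCCNNNNNGGA, the word searched for the factor Lys14, was found before 1 of 9, against 383 of 6117 genes (6.26%). The list of 34 sulfate and methionine genes was taken up after its values were seen, so its counts test nothing. At an unadjusted p under 0.05, 8 of the 34 were higher and 0 lower, beside 6.3% and 3.38% of all genes. Of the 8, 7 were among the 11 genes of sulfate uptake and reduction. The medians of these 11 genes were 0.36 in replicate 1 and 0.11 in replicate 2. The phosphate regulon had medians of 0.26 and 0.092, but the Tfg1-HA replicates themselves differed there by a median of 0.34. *PHO84*, the high-affinity phosphate transporter gene, stood at 1459 and 1119 CPM in Tfg1-K60,61R-HA, against 1225 and 626 CPM in Tfg1-HA. *PHO89*, a sodium-coupled transporter gene, stood at 68.1 and 14.2 CPM, against 23.8 and 9.38 CPM, and *PHO4*, the activator gene, at 48.7 and 51.4 CPM, against 50.8 and 51.3 CPM. The strains overlapped for each of these phosphate genes, and *PHO84* stood between 40.9 and 80.4 CPM in the W303a and *ubc9-6* libraries.

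The copper and zinc list (13 of 16 members tested) had the fourth highest median, 0.14, with 0.20 in Tfg1-K60,61R-HA replicate 1 and -0.023 in replicate 2. *ZRT1*, the high-affinity zinc transporter gene, stood at 5697 and 4188 CPM in Tfg1-K60,61R-HA, against 4094 and 4423 CPM in Tfg1-HA. *ZPS1*, a cell wall gene of the zinc regulon, stood at 2880 and 1571 CPM, against 1622 and 1670 CPM. *CTR3*, a copper transporter gene, stood at 6.04 and 6.39 CPM, against 6.86 and 7.65 CPM. Replicate 1 was the highest library for both zinc genes. *CTR1*, the other copper transporter gene, and *ADH1*, the main fermentative alcohol dehydrogenase gene, which zinc shortage is known to repress, were singled out after their values were seen. *CTR1* stood at 57.6 and 182 CPM in Tfg1-K60,61R-HA, against 98.1 and 83.0 CPM in Tfg1-HA, so that the 2 mutant libraries lay on opposite sides of Tfg1-HA. *ADH1* stood at 1616 and 3612 CPM, against 3593 and 2779 CPM.

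The nuclear genes of mitochondrial ribosomes and of the respiratory chain lay below Tfg1-HA in replicate 1 but not in replicate 2. Of the 75 mitochondrial ribosomal protein genes, 72 lay below the Tfg1-HA mean in Tfg1-K60,61R-HA replicate 1 and 38 did in replicate 2, with medians of -0.14 and -0.0038. Both libraries lay below both of Tfg1-HA for 24 genes (32%) and above for 1, beside 17.4% and 18.4% of all genes. In edgeR's test 8 had an unadjusted p under 0.05 with a lower level, beside 3.38% of all genes. The median log2 fold change was -0.072, and -0.11 with the length trend removed. *MRPL13* stood at 98.3 and 104 CPM in Tfg1-K60,61R-HA, against 111 and 120 CPM in Tfg1-HA. *MNP1*, the most abundant in CPM, stood at 216 and 244 CPM, against 236 and 246 CPM, and *RSM10* at 120.5 and 114 CPM, against 114 and 112 CPM. The 39 respiratory chain and ATP synthase genes had medians of -0.093 and 0.054, and within them complexes III and IV had medians of -0.19 and -0.17 in replicate 1, beside -0.026 for the ATP synthase. *NDE1*, an external NADH dehydrogenase gene, stood at 948 and 1185 CPM, against 1239 and 1173 CPM, and *ATP2*, the ATP synthase beta subunit gene, at 1661 and 1824 CPM, against 1811 and 1759 CPM. *COX5B* was the member of this list with the highest fold change and is the low-oxygen gene given above. Genes of the mitochondrial genome were instead higher in replicate 1 than in replicate 2. The 4 of 8 that were tested, all under 15 CPM, had a median of 0.11 in replicate 1 and -0.60 in replicate 2. All 4 differed by more than 1.5-fold between the Tfg1-K60,61R-HA replicates. Between the strains all 4 had a log2 fold change below 0, with a median of -0.21. The W303a replicates also differed there, by a median of 0.33.

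**Figure D3:**
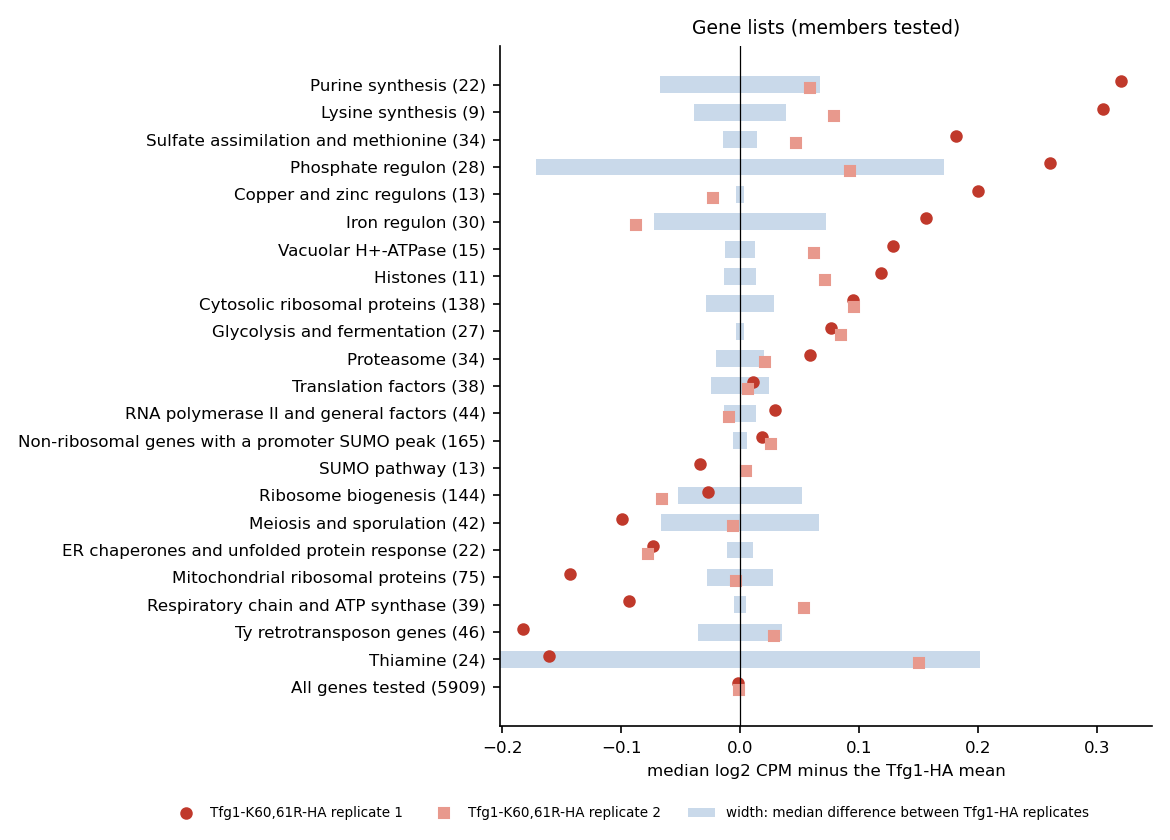
Median over the members of each list of log2 CPM minus the mean of the 2 Tfg1-HA libraries, for Tfg1-K60,61R-HA replicate 1 (circles) and replicate 2 (squares), with bars as wide as the median difference between the Tfg1-HA replicates. Replicate 1 lies further out than replicate 2 for the purine, lysine and mitochondrial ribosomal protein lists, the symbols lie on opposite sides of 0 for the iron (0.16 and -0.087) and thiamine (-0.16 and 0.15) lists, and both symbols coincide for the cytosolic ribosomal proteins (0.095 and 0.096) and for the ER chaperones (-0.073 and -0.078).

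RPGs lay slightly above Tfg1-HA in both Tfg1-K60,61R-HA libraries. Of 138 RPGs, 64 had an unadjusted p under 0.05 with a higher level in Tfg1-K60,61R-HA, and 0 had a lower one, where 6.3% and 3.38% of all genes did. Both Tfg1-K60,61R-HA libraries lay above both Tfg1-HA libraries for 100 of 138 RPGs and below for 2, beside 18.4% and 17.4% of all genes. The median log2 fold change was 0.097, with an interquartile range of 0.065 to 0.14, beside -0.0026 for all genes tested. The medians were 0.095 in replicate 1 and 0.096 in replicate 2, so on these values the library that stood apart in the low-oxygen genes did not do so here. Values by gene length, in which the 2 libraries differed, are given below. Each of the 4 differences between a Tfg1-K60,61R-HA and a Tfg1-HA library had a median above 0, from 0.063 to 0.13. The large subunit (82 genes) and the small subunit (56 genes) had medians of 0.093 and 0.10. *RPS21A* had the highest fold change at 907 and 918 CPM in Tfg1-K60,61R-HA, against 768 and 730 CPM in Tfg1-HA (log2 fold change 0.28, standard error 0.04, adjusted p = 0.42, edgeR), though it overlaps another gene in the annotation. *RPL3*, the most abundant in CPM, stood at 4857 and 5184 CPM, against 4774 and 4620 CPM. *RPS9A* had the lowest fold change at 370 and 404 CPM, against 413 and 424 CPM. DESeq2, which gave an adjusted p for only 419 genes, called 18 of the 127 RPGs among them, all higher, where it called 8.35% of all 419 higher and 0.239% lower. At an unadjusted p under 0.05, 52 of 138 RPGs were higher and 1 lower without Tfg1-K60,61R-HA replicate 2, beside 14.5% and 11.6% of all genes, and 47 were higher and 1 lower without replicate 1, beside 3.27% and 2.55%.

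The RPG values move with other measures, whose part in them was not tested. RPGs are short, with a median exonic length of 434 bases against 1194 for all genes tested. In Tfg1-K60,61R-HA replicate 1 the 1198 shortest genes (up to 597 bases) had a median of 0.088 relative to the Tfg1-HA mean and the 1181 longest (from 2112 bases) -0.075, whereas these medians were 0.012 and -0.013 in replicate 2. The RPG median thus lay near that of the shortest genes in replicate 1 and above it in replicate 2. With each library's trend with gene length removed, the RPG median was 0.056. On a scale where 0 is the mean of the 4 Tfg1 libraries, the RPG medians were 0.049 and 0.05 in Tfg1-K60,61R-HA, -0.018 and -0.079 in Tfg1-HA, and -0.052 and -0.11 in *ubc9-6*, and 0.04 and 0.024 in the untagged W303a. The Tfg1-K60,61R-HA values lay above those of W303a, and the Tfg1-HA values below them.

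The vacuolar ATPase, histone and glycolysis lists, singled out after their values were seen, also lay above Tfg1-HA in both libraries. The vacuolar H+-ATPase, the proton pump that acidifies the vacuole, had both libraries above both of Tfg1-HA for 12 of 15 subunits, with medians of 0.13 and 0.063 in replicates 1 and 2. The histone genes did so for 7 of 11, with medians of 0.12 and 0.071. Of 27 glycolysis and fermentation genes 14 did so, with medians of 0.076 and 0.085. Within them lower glycolysis did for 7 of 9, upper glycolysis for 5 of 8 and fermentation for 2 of 10. Over all genes the share was 18.4%. The fermentation genes, *ADH1* among them, had medians of -0.092 in replicate 1 and 0.071 in replicate 2. With the length trend removed the median log2 fold changes were 0.073 for the ATPase, 0.053 for the histones and 0.087 for glycolysis, in place of 0.096, 0.093 and 0.089. By edgeR's quasi-likelihood test none of these genes was called. By that test 5 of 15, 5 of 11 and 8 of 27 had an unadjusted p under 0.05 with a higher level, beside 6.3% of all genes. DESeq2 called 1 ATPase, 1 histone and 2 glycolysis genes higher, of the 5, 8 and 18 for which it gave an adjusted p. It called 8.35% of all 419 such genes higher, so these few calls do not set the lists apart.

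ER chaperones and targets of the unfolded protein response, the response to misfolded protein in the ER, lay below Tfg1-HA in both libraries. Of 22 genes, 11 had both Tfg1-K60,61R-HA libraries below both of Tfg1-HA and 2 above, beside 17.4% and 18.4% of all genes. At an unadjusted p under 0.05, 7 were lower and 0 higher, beside 3.38% and 6.3% of all genes. The medians were -0.073 in replicate 1 and -0.078 in replicate 2, and the 4 differences between libraries had medians from -0.10 to -0.042. *KAR2*, on chromosome X from 381327 to 383375, encodes the Hsp70 of the ER and stood at 1410 and 1379 CPM in Tfg1-K60,61R-HA, against 1539 and 1584 CPM in Tfg1-HA (log2 fold change -0.16, standard error 0.04, adjusted p = 0.446, edgeR). *SIL1*, which encodes the nucleotide exchange factor of Kar2, stood at 114 and 114 CPM, against 130 and 137 CPM (log2 fold change -0.23, standard error 0.04, adjusted p = 0.42, edgeR). *EUG1*, a protein disulfide isomerase gene, stood at 90.9 and 73.5 CPM, against 74.0 and 79.9 CPM. *KAR2* was the only gene that DESeq2 called lower. With the length trend removed the median of the list was -0.084.

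Ribosome biogenesis genes were likewise singled out afterwards. Both Tfg1-K60,61R-HA libraries lay below both of Tfg1-HA for 45 of 144 members and above for 2, beside 17.4% and 18.4% of all genes. Of the 45, 23 were among the 47 genes of the small subunit processome. The medians were -0.027 and -0.066 in replicates 1 and 2. The Tfg1-HA replicates differed by a median of 0.11 here, and of the 4 differences between libraries 1 had a median above 0, at 0.033 for Tfg1-K60,61R-HA replicate 1 against Tfg1-HA replicate 2. Thus these genes lay on the other side of Tfg1-HA from the RPGs, by less than the Tfg1-HA replicates differed.

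**Figure D4:**
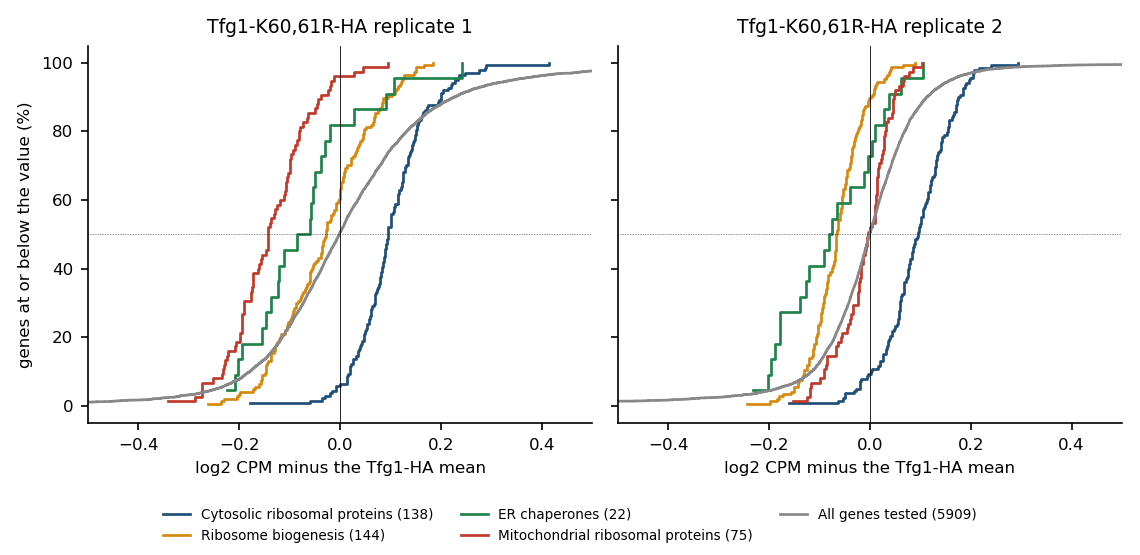
Cumulative share of genes (%) at or below each log2 CPM difference from the Tfg1-HA mean, for 4 lists and for all 5909 genes tested, in Tfg1-K60,61R-HA replicate 1 (left) and replicate 2 (right). The RPG curve lies right of all genes in both panels, with 129 and 125 of 138 RPGs above 0, while the mitochondrial ribosomal protein curve is displaced to the left in replicate 1 and follows all genes in replicate 2.

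The transcription machinery itself and the SUMO pathway lay close to Tfg1-HA. *TFG1* stood at 160 and 161 CPM in Tfg1-K60,61R-HA, against 172 and 167 CPM in Tfg1-HA (log2 fold change -0.08, standard error 0.04, adjusted p = 0.555, edgeR), and the count of reads cannot tell the mutant allele from the wild type one. *TFG2*, the second TFIIF subunit gene, stood at 146 and 131 CPM, against 127 and 131 CPM, and *TAF14*, which encodes the third, at 146 and 150 CPM, against 148 and 149 CPM. Among 44 genes of RNAPII and the GTFs, 1 had an unadjusted p under 0.05, with a higher level, beside 6.3% of all genes. In 10 both Tfg1-K60,61R-HA libraries lay above and in 10 below both of Tfg1-HA, beside 18.4% and 17.4% of all genes. The log2 fold changes ran from -0.09 for *TAF1* to 0.14 for *RPC10*. *RPB2*, the second largest RNAPII subunit gene and the most abundant of the list in CPM, stood at 362 and 373 CPM, against 376 and 379 CPM. In the SUMO pathway the median of 13 genes was -0.02. *SMT3*, which encodes SUMO, stood at 212 and 187 CPM, against 189 and 186 CPM, and *UBC9*, which encodes the conjugating enzyme, at 82.5 and 83.2 CPM, against 81.6 and 81.7 CPM. *AOS1*, for a subunit of the activating enzyme, stood at 69.7 and 66.8 CPM, against 64.5 and 64.1 CPM, and *MMS21*, a SUMO ligase gene, at 4.93 and 6.01 CPM, against 6.62 and 6.74 CPM.

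Genes other than RPGs that the study listed as having a SUMO peak at their promoter had a median log2 fold change of 0.029 over 165 genes tested, with 0.018 in replicate 1 and 0.026 in replicate 2. Of these, 40 had both Tfg1-K60,61R-HA libraries above both of Tfg1-HA and 24 below, or 24.2% and 14.5%, beside 18.4% and 17.4% of all genes. *TDH3*, a glycolysis gene and the most abundant in CPM, stood at 20076 and 20492 CPM, against 19282 and 19367 CPM in Tfg1-HA. *ATG41*, an autophagy gene, stood at 111 and 64.6 CPM, against 61.2 and 67.5 CPM, with replicate 1 alone high. The lowest fold change in this list and among Ty genes was that of *YER138C*, at 0.537 and 0.88 CPM against 0.473 and 4.92 CPM, and it rests on 1 Tfg1-HA library and on a gene with 27 near-identical copies.

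The Ty and meiosis lists lay below Tfg1-HA in replicate 1 and close to it in replicate 2. Of 91 Ty genes, the 46 that were tested had medians relative to the Tfg1-HA mean of -0.18 in Tfg1-K60,61R-HA replicate 1 and 0.028 in replicate 2. *YJR027W*, the most abundant in CPM, stood at 197 and 247 CPM, against 228 and 244 CPM in Tfg1-HA, and *YMR050C* at 39.7 and 23.8 CPM, against 24.6 and 20.7 CPM. Reads that map to several places were not counted, so values of Ty genes cover only their unique parts. The 42 meiosis genes had a median log2 fold change of -0.079, which was -0.040 with the length trend removed and 0.020 without Tfg1-HA replicate 2, and medians relative to the Tfg1-HA mean of -0.099 and -0.0063 in replicates 1 and 2. *DMC1*, a meiotic recombinase gene, stood at 8.63 and 6.73 CPM, against 5.7 and 6.43 CPM, *SMK1*, a sporulation kinase gene, at 10.2 and 10.9 CPM, against 12.2 and 13.5 CPM, and *UME6*, which encodes the repressor of early meiotic genes, at 38.3 and 41.9 CPM, against 40.8 and 41.9 CPM.

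The marker genes, whose alleles the labels do not set apart between the strains, differed by as much as genes of the lists. *LEU2* stood at 215 and 210 CPM in Tfg1-K60,61R-HA, against 176 and 183 CPM in Tfg1-HA (log2 fold change 0.24, standard error 0.07, adjusted p = 0.446, edgeR). *HIS3* stood at 41.2 and 29.8 CPM, against 27.8 and 26.2 CPM. *URA3* stood at 167 and 193 CPM, against 173 and 160 CPM, *TRP1* at 19.03 and 18.3 CPM, against 18.2 and 18.0 CPM, and *CAN1* at 168 and 163 CPM, against 157 and 159 CPM. Of these and *ADE2*, only *URA3* had libraries of the strains that overlapped.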

How the data were processed

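The authors aligned paired reads, for which the submitters' processing notes name HISAT2 2.1.0 and the sacCer3 build, counted fragments on exons with featureCounts of Subread 2.0.0, without regard to strand and leaving out multi-mapping reads and reads on more than 1 gene, and deposited these raw counts for 6120 genes. Antisense partners therefore cannot be told apart. The 2 deposited tables of comparisons, which are identical to each other, hold fold changes and p-values of the authors, whose notes name edgeR 3.32.1, and were not used.

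A mean for each of the 4 strains was estimated over 8 libraries in edgeR 4.0.16 (R 4.3.3), using TMM, edgeR's filter on low counts, the quasi-likelihood test and Benjamini-Hochberg adjustment over 5909 genes. The 95% interval of the median gene was ± 0.141 on the log2 scale. Log2 CPM used a prior count of 2. A gene was called at an adjusted p under 0.05. The fit was first run on simulated counts of 5909 genes. These had the same spread in every strain, so the run did not cover the wider spread between the Tfg1-K60,61R-HA replicates. Gene lists came from textbook pathways, and the SUMO peak list from the study; 8 listed symbols were not matched. Of the 6120 genes, 6109 matched RefSeq R64 by name and 6077 at the same coordinates. Described were the 4 highest and 4 lowest by median log2 fold change, the 3 highest and 3 lowest by difference between the Tfg1-K60,61R-HA replicates, and 4 fixed lists. In each, the member with the highest mean CPM, the highest and the lowest fold change among those with a mean of at least 50 counts was named, besides TFIIF, SUMO and marker genes. The sulfate, vacuolar ATPase, histone, glycolysis and ribosome biogenesis lists were picked for description after their values were seen. The members and lists were chosen with earlier results of these data known, and the oxygen lists and other genes named as such after their values were seen. Whether replicates were separate cultures is not stated in the labels, so p-values measure the spread between these libraries. Near-identical copies (at least 95% identity over 50% of the length, BLAST 2.17.0) were marked. Alternatives were DESeq2 1.42.0, the likelihood ratio test, RLE, other filters, 4 libraries, a replicate block, a robust fit, removal of the length trend (loess) and leaving out each library.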

Additional observations from a re-analysis of the deposited data

How the results depend on the processing

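The count of 0 called genes held with RLE, without a filter, with at least 10 counts in every library, with the 4 libraries alone, with a robust fit chosen after seeing the data, and without any 1 of the W303a or *ubc9-6* libraries. It was 3 with the likelihood ratio test and 36 with DESeq2. Leaving out 1 library gave from 0 to 446 called genes. It was 446 without Tfg1-K60,61R-HA replicate 2, 3 without Tfg1-HA replicate 1, and 0 without Tfg1-K60,61R-HA replicate 1 or Tfg1-HA replicate 2. The 572 genes at an unadjusted p under 0.05 became 292 with the 4 libraries alone, and 341 to 1548 when 1 library was left out: 1548 without Tfg1-K60,61R-HA replicate 2, 345 without replicate 1 and 341 without Tfg1-HA replicate 2. The replicate number as a block gave 0 called genes with 8 and with 4 libraries, and 535 and 494 genes at an unadjusted p under 0.05. Across genes the replicate differences of both Tfg1 strains correlated at r = 0.118, but with 2 pairs and no label on pairing the numbers were taken as names only. The SD between the Tfg1-K60,61R-HA replicates was 0.23 without the low-oxygen genes and 0.287 without the length trend. Over the alternatives without a left-out library the RPG median ran from 0.056 to 0.097 and that of the ER chaperones from -0.084 to -0.072. With 1 library left out they ran from 0.067 to 0.13 and from -0.081 to -0.056, the mitochondrial ribosomal protein median from -0.14 to -0.0042, and the purine median from 0.055 to 0.32. The ribosome biogenesis median lay between -0.098 and 0.0056 and was above 0 only without Tfg1-HA replicate 1. That of the copper and zinc list was -0.024 without Tfg1-K60,61R-HA replicate 1. Of 911 values of single genes under alternatives, 37 changed sign, none of them called.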
